A study of Mus musculus with 4 samples.

Results

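The RNA that came down with the RNA-binding protein Caprin-1 was set against the RNA that came down with control IgG, in 4T1 cells that carry a control (SCR) shRNA. The members were the 2 libraries of these cells, shSCR Caprin-1 and shSCR IgG, of the 4 libraries in the series, and the genes whose level averaged at least 5 CPM over all 4 libraries, which kept 10283 of the 12967 gene symbols in the deposited table. 4T1 is a mouse mammary carcinoma cell line, grown here in DMEM with serum and 4 ug/mL puromycin, and each line stably expressed either the SCR shRNA or a shRNA against CerS4, a ceramide synthase. The study asked about the complex of PD-L1 (Cd274) with Caprin-1 when lipid metabolism is altered. The shCerS4 Caprin-1 and shCerS4 IgG libraries, which share no library with the control pair, are used below as a second pair. The labels do not say whether a line was 1 clone or a pool, and the table has no entry for Cers4, so the knockdown could not be checked.

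Caprin-1 is a cytoplasmic protein that binds mRNA through RGG-rich stretches, pairs with G3BP1 and takes part in stress granules, the condensates that form when translation initiation stalls. In an RNA immunoprecipitation, a lysate is incubated with an antibody, the RNA on the beads is sequenced, and an IgG without that target records what the beads and the lysate give on their own. Levels are in CPM, a gene's reads after every library is scaled to the same total. A gene's Caprin-1 over IgG ratio is thus a share of one precipitate over its share of the other, and no library of total RNA was analysed here. Because each library is scaled to its own total, fewer copies of one RNA and more of all others cannot be told apart.

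Each group was 1 library, so the comparison has no replicate check and no test was made. Estimated depth was 19.8 M reads for IgG and 27.0 M reads for Caprin-1 in shSCR cells, and 19.7 M and 24.7 M reads in shCerS4 cells. A count of 3 reads, the floor used for a gene with none, was 0.151 CPM and 0.111 CPM in the control pair. Ratios are given as log2 of Caprin-1 over IgG after adding 0.5 reads to each side, with a 95% exact binomial (Clopper-Pearson) interval in square brackets. With 1 library a side, the interval covers only the counting error of the estimated reads. Reads were not tagged with molecular identifiers, so copies of 1 molecule count as separate reads and the interval may be too narrow. A gene is called higher or lower past 2-fold where its ratio is at least 2-fold from equality and its interval excludes 0. At the threshold of the rule, S100b lay just inside with a mean of 5.001 CPM, and Nmrk1 just outside with 4.992 CPM, 4.08 CPM in IgG and 3.29 CPM in Caprin-1.

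Epithelial markers matched the labelled cell type. Of 11 listed markers, 10 were tested, 2 of them were higher past 2-fold, and their median ratio was 0.60; the basal keratin gene Krt5 had no entry. The luminal keratin Krt8 stood at 1892 CPM in IgG and 2790 CPM in Caprin-1, and its partner Krt18 at 1914 CPM and 4276 CPM. Of 17 markers of immune, endothelial and stromal cells, 5 had an entry. The macrophage-associated lysosomal gene Cd68 stood at 25.9 CPM in IgG and 49.1 CPM in Caprin-1, and the receptor gene Pdgfra at 58.9 CPM and 23.6 CPM. The collagen gene Col1a2 had 1.92 CPM and 0.185 CPM, while the stromal proteoglycan gene Lum and the endothelial receptor gene Kdr had 0.958 CPM and 0.666 CPM in shSCR IgG and were at 0 in shSCR Caprin-1.

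The shSCR IgG library stood apart from the other 3 libraries in a set of genes, some of them known from other tissues. Genes of at least 1 CPM in a library and at least 4-fold above every other library numbered 80 in shSCR IgG (0.617% of 12967 symbols), against 2 in shSCR Caprin-1 and, in the other line, 31 with IgG and 9 with Caprin-1. They included Coch, which encodes the inner ear protein cochlin, at 19.7 CPM in shSCR IgG and 0.629 CPM in shSCR Caprin-1, with 3.66 CPM and 1.22 CPM in the shCerS4 pair. Dct, a melanocyte enzyme gene, stood at 16.4 CPM in shSCR IgG and 0.444 to 0.730 CPM in the other 3, and Otos, which encodes the inner ear protein otospiralin, at 7.16 CPM against 0.162 to 0.712 CPM. Of 24 inner ear genes listed after these values were seen, 12 had an entry, 9 of those were highest in shSCR IgG, and their summed level was 64.5 CPM there against 13.0 CPM in shSCR Caprin-1 and, in the shCerS4 pair, 11.2 CPM with IgG and 6.41 CPM with Caprin-1. The neurofilament genes Nefh and Nefm likewise stood at 6.10 and 4.99 CPM in shSCR IgG, and at 0.111 and 0.185 CPM in shSCR Caprin-1. A second such list, of 16 myelin and peripheral neuron genes, summed to 141 CPM with IgG and 104 CPM with Caprin-1 in shSCR cells, and to 141 and 157 CPM in shCerS4 cells. The 80 genes summed to 1870 CPM in shSCR IgG, of which Cdk6 alone had 1506 CPM. Of the 80 genes, 6 were tested (Cdk6, Ptgds, Apod, Coch, Apoe and S100b). All 6 were lower past 2-fold, which the 4-fold limit that chose them required, and 5 of them were among the 12 lowest ratios. Apod, Coch, Apoe and S100b were under 5 CPM in every other library, so the level filter kept them through shSCR IgG alone. The part of this set in the low ratios of those 6 genes was not tested.

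In the control pair, 174 genes were higher past 2-fold with Caprin-1 (1.69% of 10283) and 1337 were lower (13.0%). Higher genes were 11.5% of all called genes, and that share was 31.2%, 32.8% and 33.6% under the 3 other scalings tried, which move every ratio up by 0.16 to 0.18. The median ratio was −0.13, the quartiles were −0.65 and 0.30, and 5% of genes lay below −1.40 and 5% above 0.79. The spread reached farther downward, with 73 genes lower by at least 4-fold and 2 higher by as much. The lowest ratio, −4.93, was that of Coch, one of the 6 tested genes found mainly in shSCR IgG. The 174 higher genes together took 1.27% of the IgG library and 2.83% of the Caprin-1 library, and the 1337 lower genes took 11.0% and 4.32%. Leaving out the 80 genes found mainly in shSCR IgG removed only their 6 tested members, all lower by the limit that chose them. The counts were then 174 and 1331 and the median was −0.13. That outcome was set by the choice of genes and says nothing about the other ratios.

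**Figure D1:**
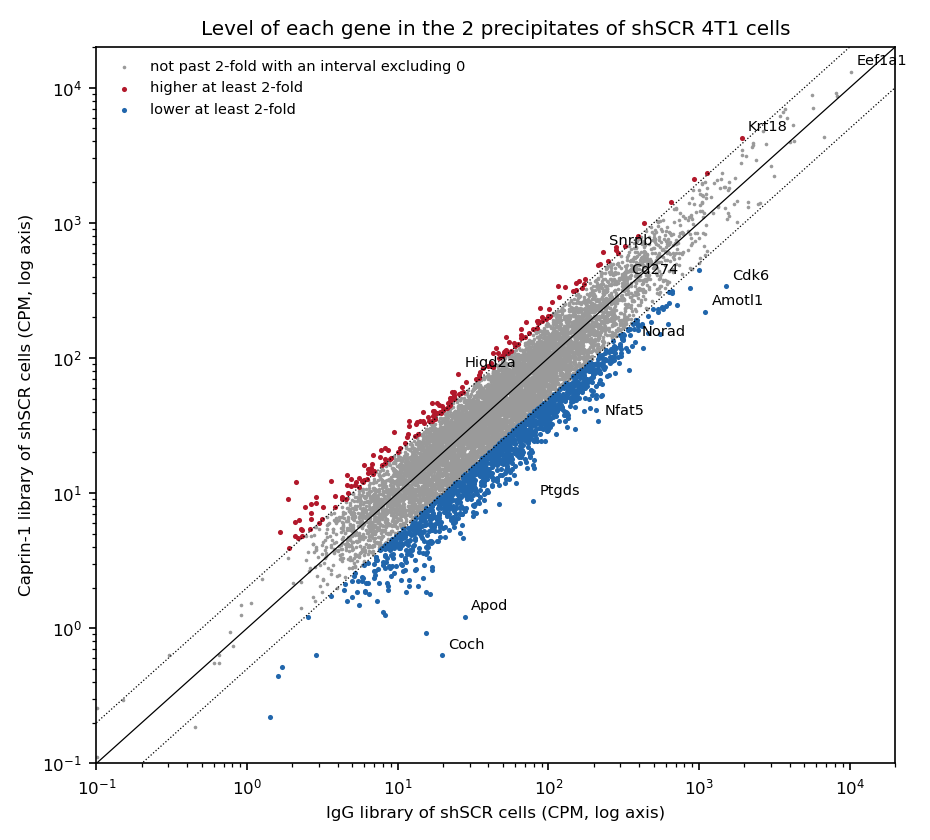
Level of each gene in shSCR Caprin-1 (vertical, CPM, log scale) against its level in shSCR IgG (horizontal, CPM, log scale), with genes higher past 2-fold in red, lower in blue and all others in grey; the solid line marks equal levels and the dotted lines 2-fold. The 1337 lower genes spread farther from the line than the 174 higher ones; 10282 genes are drawn, and 1 below the axis is not.

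Among the genes of at least 20 CPM with the lowest ratios was Ptgds, which encodes a prostaglandin D2 synthase (chr2:25466709-25470110, GRCm38.p6). It was at 79.0 CPM in IgG and 8.73 CPM in Caprin-1, a ratio of −3.17 [−3.38, −2.98], and is one of the genes found mainly in the shSCR IgG library. Nfat5, which encodes the transcription factor that responds to osmotic stress (chr8:107293435-107379517), was at 215 CPM in IgG and 34.3 CPM in Caprin-1, −2.65 [−2.76, −2.55]. The second pair of Nfat5, 250 CPM in IgG and 48.9 CPM in Caprin-1, lay as clearly on that side, whereas Ptgds was at 15.8 and 14.0 CPM there. Amotl1, which encodes an angiomotin-like junction protein (chr9:14541966-14662974), was the most abundant of these after Cdk6, at 1102 CPM in IgG and 220 CPM in Caprin-1, −2.32 [−2.36, −2.28].

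Cdk6, which encodes a kinase of the G1 phase (chr5:3341004-3531008), was at 1506 CPM in shSCR IgG and 340 CPM in shSCR Caprin-1, and at 361 and 101 CPM in the shCerS4 pair. Its level thus differed between the cell lines by about as much as between the precipitates, and its ratio was −2.15 in the control pair and −1.84 in the other. The Hippo pathway transcription factor gene Tead1 went from 188 CPM in IgG to 42.4 CPM in Caprin-1, and Braf, which encodes a kinase of the MAPK cascade, from 25.7 to 5.07 CPM. Ccnk, which encodes the cyclin of the transcription kinases CDK12 and CDK13, was at 173 CPM in IgG and 40.4 CPM in Caprin-1, and its ratio was farther from 0 in the shCerS4 pair (−2.71) than in the control pair (−2.10). The octamer-binding transcription factor gene Pou2f1 had a ratio of −2.37 in the control pair and −2.09 in the other, and the focal adhesion gene Lpp −2.34 and −1.80.

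Among the genes of at least 20 CPM with the highest ratios was Higd2a, which encodes a small mitochondrial inner membrane protein (chr13:54590231-54591147), at 25.2 CPM in IgG and 76.5 CPM in Caprin-1, a ratio of 1.60 [1.46, 1.75]. S100a11, which encodes a calcium-binding protein (chr3:93520496-93526288), was at 116 CPM in IgG and 338 CPM in Caprin-1, 1.54 [1.47, 1.60]. Both were also higher with Caprin-1 in the shCerS4 pair, S100a11 past 2-fold (108 to 225 CPM) and Higd2a just short of it (40.6 to 76.7 CPM). Comtd1, which encodes a methyltransferase-domain protein, was at 9.48 CPM in IgG and 28.2 CPM in Caprin-1, 1.57 [1.34, 1.81]. Smarcb1, a core subunit of the SWI/SNF chromatin remodeller, was at 52.1 and 143 CPM, a ratio of 1.45.

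Others in the highest group were Snrpb, which encodes the Sm proteins B of the spliceosomal snRNPs, at 229 CPM in IgG and 611 CPM in Caprin-1, and Csnk2b, the regulatory subunit of casein kinase 2, at 70.6 and 186 CPM. Bola1, which encodes a mitochondrial iron-sulfur cluster factor, stood at 17.0 and 46.7 CPM, and Atp5d, the delta subunit of ATP synthase, at 128 and 337 CPM. Cyba, which encodes the p22 subunit of NADPH oxidase, was at 65.7 CPM in IgG and 165 CPM in Caprin-1. Lamtor4, which encodes a subunit of the lysosomal Ragulator complex, was at 13.5 and 33.4 CPM. Tfpt, which encodes a subunit of the INO80 remodeller, and Alkbh7, a mitochondrial AlkB-type protein, were as far from equality in the shCerS4 pair (1.40 and 1.53) as in the control pair (1.35 and 1.43).

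The second pair gave the same side for nearly all called genes, mostly nearer to equality. In shCerS4 cells, 96 genes were higher past 2-fold (0.934%) and 825 lower (8.02%), with a median of −0.11. Of the 174 genes higher in the control pair, 52 were also higher past 2-fold there, which is 29.9% of the 174 and 54.2% of the 96. Of the 1337 lower genes, 700 were also lower, which is 52.4% of the 1337 and 84.8% of the 825. Counted by the interval alone, 162 of the 174 and 1318 of the 1337 lay on the same side in shCerS4 cells, and 0 and 1 on the opposite side. The median ratio of the 174 was 1.14 in the control pair, which chose them, and 0.88 in the other; for the 1337 it was −1.31 and −1.02. Over all tested genes, 298 (2.90%) had intervals on opposite sides of 0 in the 2 cell lines.

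**Figure D2:**
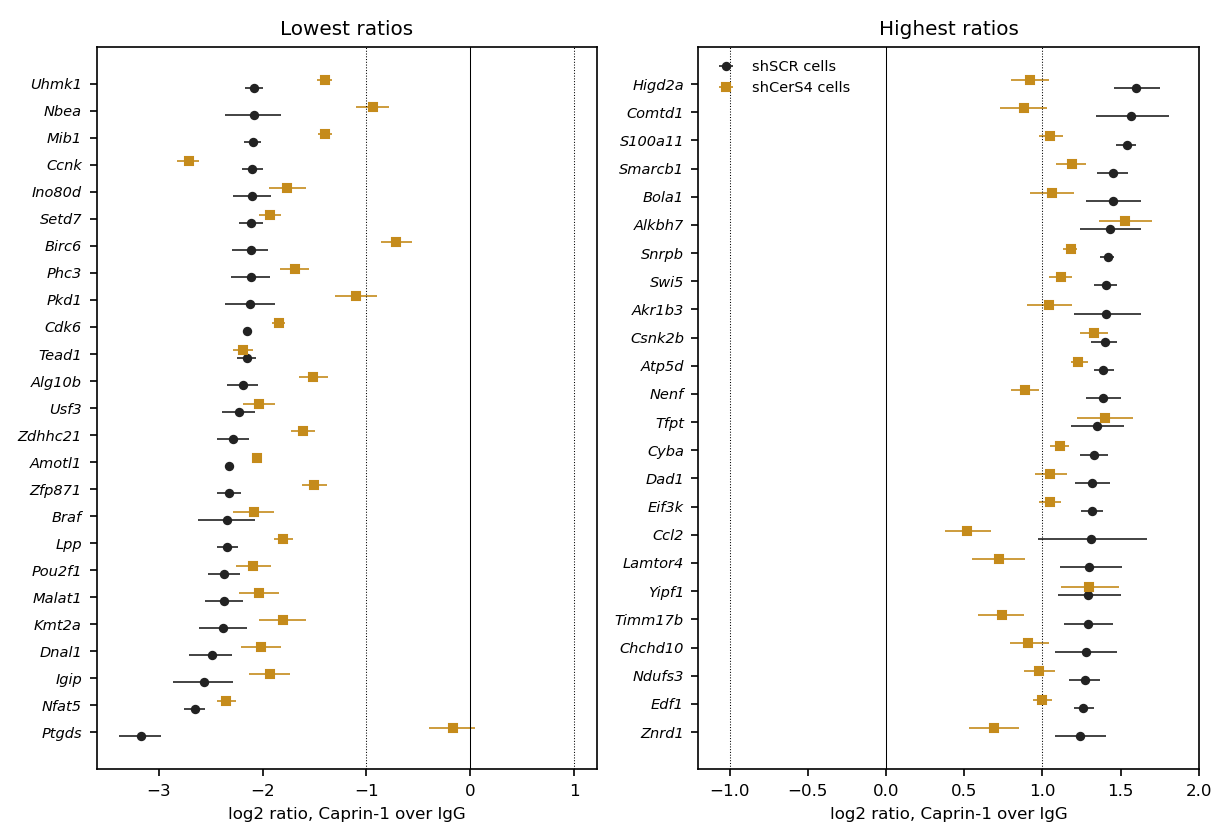
Log2 Caprin-1 over IgG ratio (horizontal) of the 25 lowest (left) and 24 of the highest (right) genes of at least 20 CPM, with 95% counting intervals, in shSCR cells, by which the genes were chosen, and in shCerS4 cells. The ratio was farther from 0 in shSCR cells for 23 of the 25 lowest and 21 of the 24 highest genes, and Ptgds lies far from its shSCR value.

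Genomic span, the distance from a gene's start to its end, ordered the ratios in both cell lines. The 1174 genes under 5 kb had a median ratio of 0.38, with 5.88% higher and 1.96% lower past 2-fold, and the 1191 genes over 100 kb had a median of −0.77, with 0.336% higher and 37.3% lower. The classes between lay in order, with medians of 0.24, 0.04, −0.25 and −0.62 at 5 to 10, 10 to 20, 20 to 50 and 50 to 100 kb. The same 6 classes had medians of 0.26, 0.18, 0.05, −0.18, −0.49 and −0.59 in the shCerS4 pair. The 174 higher genes had a median span of 6.44 kb and the 1337 lower genes 71.5 kb, against 23.5 kb for all tested genes. The gap between the shortest and longest class, 1.15 over all genes, was 1.18 among genes of at least 20 CPM and 1.24 among genes with 1 transcript in the file.

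**Figure D3:**
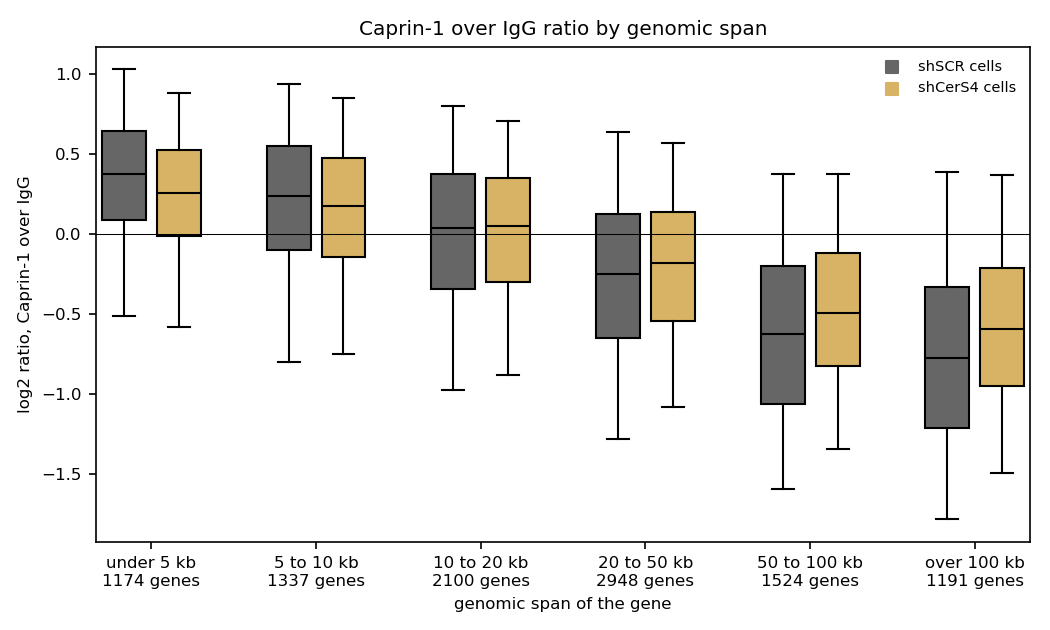
Log2 Caprin-1 over IgG ratio (vertical) by class of genomic span (horizontal, kb) in shSCR and shCerS4 cells; boxes give the quartiles and the median over genes, whiskers the 5th and 95th percentiles. In shSCR cells the median went from 0.38 under 5 kb to −0.77 over 100 kb.

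A few genes went against their span class, and those named here were picked after their values were seen. Over 100 kb, 4 genes were higher past 2-fold. Babam2, which encodes a BRCA1-A complex member and spans 387 kb, was at 11.7 CPM in IgG and 27.6 CPM in Caprin-1. Cmss1 was at 16.9 and 34.1 CPM, the calcium channel gene Cacna1a at 2.98 and 6.04 CPM, and Med27, a Mediator subunit gene, at 16.1 and 34.4 CPM. Under 5 kb, 23 genes were lower, and several of those encode no protein. H19, an imprinted non-coding RNA, was at 44.7 CPM in IgG and 17.6 CPM in Caprin-1, a ratio of −1.35. Rpph1, the RNA subunit of RNase P, was at 15.3 and 3.96 CPM, and Rmrp, the RNA of RNase MRP, at 8.83 and 3.77 CPM; their ratios were −1.94 and −1.22 in the control pair and −2.32 and −2.50 in the other. The immediate early transcription factor gene Egr1, at 34.8 and 14.1 CPM, and the SOX factor gene Sox12, at 33.7 and 14.2 CPM, were protein-coding genes among the 23.

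Level was a weaker divider than span. Grouped by their level in the shCerS4 libraries, which the ratio does not use, the genes had median ratios of −0.21, −0.19, −0.19, −0.13, −0.12, 0.07 and 0.30 from the lowest class to the highest. In the highest class, at least 500 CPM, 8 of 253 genes were higher and 4 lower, and the median span was 10.1 kb. The elongation factor gene Eef1a1 led the control pair with 10163 CPM in IgG and 13137 CPM in Caprin-1. The cytoskeletal genes Vim and Actb stood at 3722 and 3603 CPM in IgG and at 6923 and 6629 CPM in Caprin-1, both just short of 2-fold. Rn45s, the precursor of ribosomal RNA, was at 6697 and 4287 CPM in the control pair and at 3074 and 2994 CPM in the other.

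Machines of energy metabolism lay above the all-gene median almost throughout, while few of their genes were past 2-fold. For these and all later lists, the shares over all genes were 1.69% higher and 13.0% lower. Of 36 complex I genes, which encode the NADH dehydrogenase of the respiratory chain, 34 lay above the all-gene median, 6 were higher and 0 lower past 2-fold, and the list median was 0.65. Ndufs3, a core subunit gene, was at 54.7 CPM in IgG and 132 CPM in Caprin-1, and Ndufa10 at 83.4 and 189 CPM. Ndufs1, the gene of the largest subunit, lay on the other side at 140 and 91.6 CPM, as did Ndufb4 at 9.93 and 5.49 CPM. Complexes II and III had a median of 0.54 over 14 genes, complex IV 0.38 over 12 genes, and ATP synthase 0.63 over 17 genes, with 0, 0 and 2 higher and none lower. Against the median of each gene's span class, complex I stood 0.46 higher, complexes II and III 0.34, ATP synthase 0.41 and complex IV 0.12.

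The mitochondrial ribosome and the protein import machinery were on the same side. The large mitoribosomal subunit had a median of 0.56 over 49 genes, 3 higher and 0 lower, and the small subunit 0.46 over 29 genes, 1 higher and 0 lower. Mrps14, of the small subunit, was at 51.9 CPM in IgG and 112 CPM in Caprin-1. The 29 import genes of the TIM and TOM translocases had a median of 0.30, with Timm17b, a channel subunit gene, at 22.8 and 56.0 CPM and called higher. Glycolysis genes had a median of 0.43 over 17 genes, 2 higher and 0 lower, Gapdh (283 to 658 CPM) and Aldoa (1128 to 2348 CPM); Hk2, which encodes the first enzyme of the pathway, was at 181 and 99.0 CPM. Antioxidant genes had a median of 0.53 over 29 genes with 3 higher, namely Sod1 (250 to 526 CPM), Gsto1 (85.5 to 189 CPM) and Gstp1 (98.7 to 204 CPM).

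Cytosolic ribosomal protein genes were abundant and only modestly above the median. The large-subunit genes had a median of 0.35 over 46 genes, 2 higher and 0 lower, and the small-subunit genes 0.23 over 33 genes, 0 higher and 0 lower. Against their span classes these medians were −0.02 and −0.14, unlike those of the mitochondrial ribosome, which were above their classes by 0.31 for the large subunit. Rpl24 was at 153 CPM in IgG and 356 CPM in Caprin-1, a ratio of 1.22. The 17 genes of the 20S proteasome, the proteolytic core particle, had the highest median among the protein complexes listed, 0.72, with 17 of 17 above the all-gene median and 1 higher past 2-fold, Psmb2 (74.7 to 152 CPM). The 18 genes of the 19S regulatory particle had a median of 0.35, with 0 higher and 0 lower.

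**Figure D4:**
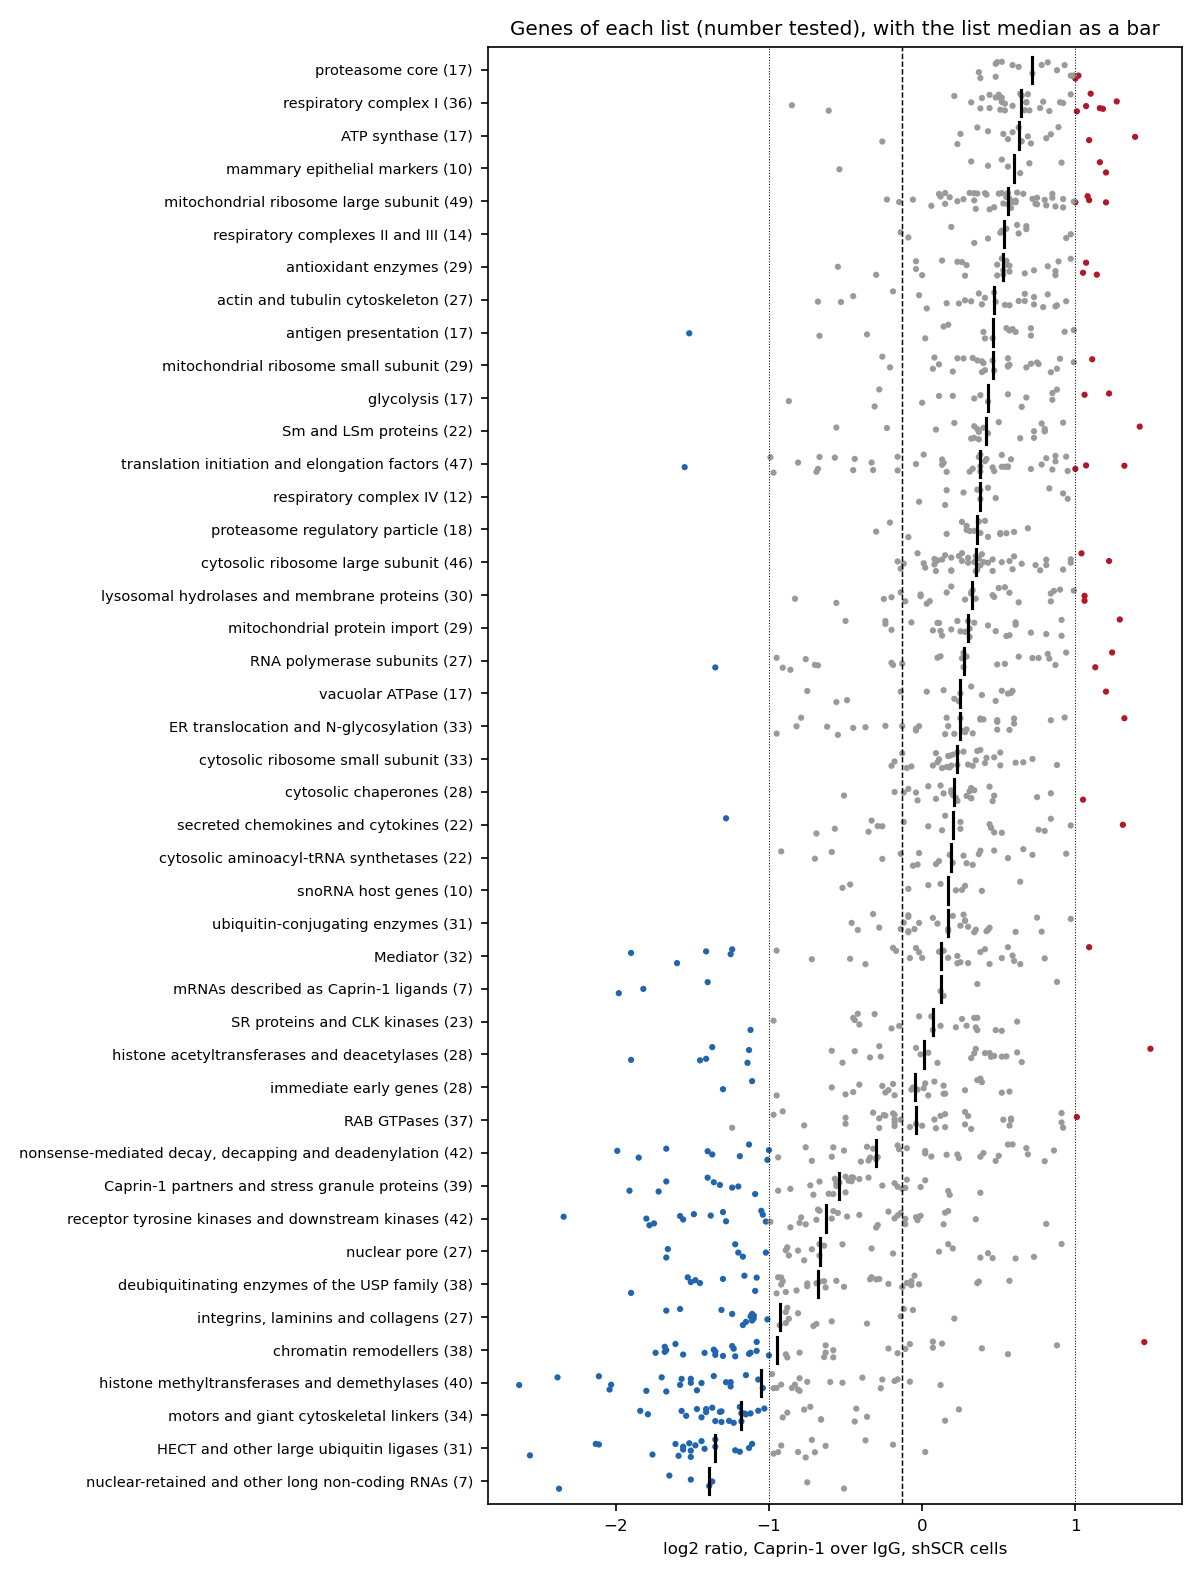
Log2 Caprin-1 over IgG ratio in shSCR cells (horizontal) of each tested gene (dots) in 44 gene lists with at least 5 tested genes, with the list median as a black bar, the all-gene median of −0.13 as a dashed line and 2-fold as dotted lines. The 20S proteasome (0.72) and complex I (0.65) lie at one end, HECT ubiquitin ligases (−1.35) and long non-coding RNAs (−1.39) at the other.

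Some lists of chromatin and ubiquitin enzymes lay at the low end. Of 40 lysine methyltransferase and demethylase genes, 0 were higher and 21 lower past 2-fold, only 2 lay above the all-gene median, and the list median was −1.06. Kmt2d, which encodes a histone H3 lysine 4 methyltransferase, was at 16.8 CPM in IgG and 2.70 CPM in Caprin-1, and its relative Kmt2a at 38.1 and 7.33 CPM. Setd7, another methyltransferase gene, was at 132 and 30.6 CPM, and the demethylase gene Kdm6b at 52.5 and 12.8 CPM. Suv39h1, which encodes a heterochromatin methyltransferase, was an exception at 70.3 and 76.7 CPM. The list stood 0.59 below its span classes and had a median of −0.81 in the shCerS4 pair.

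HECT ubiquitin ligases and related giant ligases had a median of −1.35 over 31 genes, with 0 higher and 20 lower in the control pair and a median of −0.81 with 8 lower in the shCerS4 pair. Herc2 was at 16.8 CPM in IgG and 2.85 CPM in Caprin-1, and Huwe1 at 63.4 and 18.7 CPM. Birc6, which encodes an inhibitor of apoptosis with ligase activity, was at 59.5 and 13.7 CPM with a ratio of −2.11, and its ratio in the shCerS4 pair was −0.71. The E2 conjugating enzymes, which act one step earlier, had a median of 0.17 over 31 genes with 0 higher and 0 lower. Ubiquitin-specific proteases had a median of −0.68 over 38 genes, 0 higher and 9 lower, where the shares over all genes were 1.69% and 13.0%. Usp34 was at 135 and 36.0 CPM and Usp9x at 164 and 56.7 CPM.

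Motors and linkers of the cytoskeleton parted from its building blocks, and their genes were longer, with median spans of 111 kb and 8.21 kb. Taken against the span class of each gene, the list medians were −0.56 for motors and linkers and 0.28 for the building blocks. Motor and linker genes had a median of −1.18 over 34 genes, with 0 higher and 23 lower, among them the spectraplakin genes Dst (66.2 to 18.4 CPM) and Macf1 (66.0 to 22.2 CPM) and the linker gene Plec (43.9 to 12.7 CPM). Actin, tubulin and their small binding proteins had a median of 0.47 over 27 genes, with 0 higher and 0 lower, and Pfn1, which encodes the actin-binding protein profilin, stood at 908 and 1741 CPM. RAB GTPases had a median of −0.04 over 37 genes, which turned to between 0.12 and 0.14 under the 3 other scalings, to 0.08 with a minimum of 20 CPM and to 0.02 at equal depth, with 1 higher and 0 lower.

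Within some complexes, subunits with a longer gene tended to have lower ratios. Of 32 Mediator genes, 1 was higher and 5 lower past 2-fold, shares near those of all genes (1.69% and 13.0%), and the median was 0.13. The lower ones were Med13 (148 to 49.1 CPM), Med13l (42.0 to 11.2 CPM), Med12 (31.0 to 13.1 CPM) and Cdk19 (99.1 to 42.0 CPM), which belong to the kinase module, and the backbone subunit gene Med14 (68.4 to 25.6 CPM). Med27 was the one higher, with a span of 178 kb. Across these 32 genes, which share both libraries, Spearman's rho between ratio and span was −0.49. For 27 RNA polymerase subunit genes the median was 0.27 and rho was −0.61, with Polr2a, the largest subunit of RNA polymerase II, lower at 127 and 49.7 CPM and Polr1c, shared by polymerases I and III, higher at 175 and 383 CPM.

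Chromatin remodellers had a median of −0.95 over 38 genes with 1 higher and 19 lower, and rho with span was −0.64. Smarcb1 was the one higher, and Srcap (67.7 to 20.2 CPM) and Chd2 (82.2 to 25.6 CPM), which encode ATPases, were lower, as was the SWI/SNF subunit gene Arid1a (−1.61). Histone acetyltransferases and deacetylases had a median of 0.01 over 28 genes, with 1 higher and 6 lower and rho of −0.69. The shares over all genes were 1.69% higher and 13.0% lower. The list median was −0.03 with a minimum of 20 CPM and −0.01 with the most abundant transcript alone. Crebbp, an acetyltransferase gene, was at 23.1 CPM in IgG and 6.18 CPM in Caprin-1, and Sirt5, a mitochondrial deacylase gene, at 6.86 and 19.3 CPM. Some other complexes had no such order, with rho of 0.10 over the 36 genes of complex I, 0.08 over the 17 of the 20S proteasome and 0.22 over the 46 of the large cytosolic ribosomal subunit. Others had it, with rho of −0.51 over the 14 genes of complexes II and III, −0.42 over the 29 of the small mitoribosomal subunit and −0.41 over the 18 of the 19S particle.

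RNA processing and translation genes differed between lists and within them. The Sm and LSm proteins, the ring of the spliceosomal snRNPs, had a median of 0.42 over 22 genes, with 1 higher (Snrpb) and 0 lower. SR proteins and their kinases had a median of 0.07 over 23 genes with 0 higher and 1 lower, Srrm2, at 184 CPM in IgG and 84.6 CPM in Caprin-1, a ratio of −1.12 that came to between −0.95 and −0.94 under the other scalings. Translation factors had a median of 0.38 over 47 genes with 2 higher and 1 lower. Eif3k, a small subunit of initiation factor 3, was at 105 and 261 CPM, whereas Eif3a, its largest subunit, was at 992 and 508 CPM. Eif4ebp2, which encodes a repressor of cap-dependent initiation, was the one lower, at 35.6 and 12.1 CPM. Aminoacyl-tRNA synthetases had a median of 0.19 over 22 genes, with 0 higher and 0 lower.

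The decay machinery had a median of −0.30 over 42 genes, with 0 higher and 9 lower, where the shares over all genes were 1.69% and 13.0%. Taken against the span class of each gene, the median of the decay list was −0.05. Smg1, the kinase of nonsense-mediated decay, was at 75.1 CPM in IgG and 18.9 CPM in Caprin-1, the decapping enzyme gene Dcp2 at 53.6 and 14.9 CPM, and the 5′ to 3′ exonuclease gene Xrn1 at 97.2 and 30.6 CPM. Exosome subunit genes lay on the other side; Exosc2 was at 30.5 and 49.2 CPM, a ratio of 0.69 in the control pair and −0.23 in the shCerS4 pair. Nuclear pore genes had a median of −0.67 over 27 genes with 0 higher and 6 lower and rho with span of −0.70, from Ranbp2 at 79.4 and 24.9 CPM to the mRNA export factor gene Rae1 at 60.8 and 114 CPM.

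Among membrane and secretory genes, the lysosome was high and adhesion receptors low. Lysosomal genes had a median of 0.32 over 30 genes with 2 higher and 0 lower, the protease gene Ctsz (322 to 670 CPM) and the tetraspanin gene Cd63 (289 to 602 CPM). The proton pump, the V-ATPase, had a median of 0.25 over 17 genes with 1 higher, Atp6v0c (160 to 369 CPM), and genes of the endoplasmic reticulum 0.25 over 33 genes with 1 higher, Dad1 (43.2 to 108 CPM), a subunit of oligosaccharyltransferase. Integrins and basement membrane genes had a median of −0.93 over 27 genes with 0 higher and 13 lower in the control pair, and −0.49 with 2 lower in the shCerS4 pair. Itgav was at 230 CPM in shSCR IgG and 92.8 CPM in shSCR Caprin-1, a ratio of −1.31, and its shCerS4 ratio was −0.47. The collagen IV gene Col4a5 was at 87.8 and 27.6 CPM, with ratios of −1.67 and −0.54.

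Signalling and immune genes differed from list to list, and the shares over all genes were 1.69% higher and 13.0% lower. Receptor tyrosine kinases and downstream kinases had a median of −0.63 over 42 genes, 10 of them above the all-gene median, 0 higher and 13 lower, and rho with span was −0.73. Gsk3b, which encodes a kinase of Wnt and insulin signalling, was at 176 CPM in IgG and 50.4 CPM in Caprin-1, and the growth factor receptor gene Igf1r at 124 and 42.1 CPM, while Map2k2, the gene of a short MAPK kinase, was at 118 and 207 CPM. Immediate early genes had a median of −0.04 over 28 genes, which was 0.12 to 0.14 under the other scalings, with 0 higher and 2 lower; Fosl2, an AP-1 subunit gene, was at 77.3 and 35.9 CPM. Chemokine and cytokine genes had a median of 0.20 over 22 genes with 1 higher, Ccl2 (4.59 to 11.4 CPM), a monocyte attractant, and 1 lower, the activin subunit gene Inhba (71.2 to 29.3 CPM). Antigen presentation genes had a median of 0.46 over 17 genes with 0 higher and 1 lower, Nlrc5, the transactivator of class I genes, at 18.7 and 6.51 CPM.

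The bait's own network was mostly low or near equality. Cd274, the PD-L1 gene, was at 324 CPM in IgG and 377 CPM in Caprin-1, a ratio of 0.22 [0.18, 0.27], and its ratio in the shCerS4 pair was 0.33. Caprin1 was at 552 and 392 CPM, −0.50, and G3bp1 at 516 and 522 CPM, 0.02. The 39 tested genes of Caprin-1 and stress granule proteins had a median of −0.54, with 0 higher, 9 lower and 7 above the all-gene median. Over all genes, 1.69% were higher and 13.0% lower. Taken against the span class of each gene, the median of this list was −0.25. Prrc2b was at 186 CPM in IgG and 49.5 CPM in Caprin-1, Nufip2 at 139 and 43.8 CPM, and the helicase gene Ddx6 at 278 and 108 CPM, while the cold-shock protein gene Ybx1 was at 448 and 583 CPM. Of 7 tested mRNAs described elsewhere as bound by Caprin-1, 0 were higher and 3 lower, and their median of 0.12 was −0.64 with a minimum of 1 CPM, of 20 CPM or none. The lower ones were Map1b (70.2 to 17.8 CPM), Ccnd2 (134 to 37.7 CPM) and Creb1 (164 to 62.1 CPM), and Myc stood at 209 and 230 CPM. Actb had the highest ratio of the 7, 0.88, at 3603 CPM in IgG and 6629 CPM in Caprin-1. Bdnf was at 13.9 and 17.8 CPM, a ratio of 0.36.

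Nuclear-retained and other well-known long non-coding RNAs formed a list of 20, of which 7 were tested. Of these 7, 0 were higher and 5 lower, 0 lay above the all-gene median, and their median was −1.39 in the control pair and −1.27 in the shCerS4 pair. Malat1, a nuclear speckle RNA (chr19:5795690-5802672), was at 61.3 CPM in IgG and 11.9 CPM in Caprin-1, and Neat1, the RNA of paraspeckles, at 159 and 60.4 CPM. Norad, which is cytoplasmic and binds Pumilio proteins, was at 375 and 131 CPM. Over all 102 tested genes annotated as lncRNA, 7 were higher (6.86%) and 22 lower (21.6%), against 1.69% and 13.0% over all genes. Their median was −0.13, the same as over all genes.

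Genes were also grouped by symbol family. Of 123 families of at least 10 tested genes that share the letters of their symbol, 61 had a median above the all-gene median. The lowest medians were those of the myosins Myo (−1.12, 0 higher and 7 lower of 13) and of Atxn, Dennd and Kdm (−0.92 each). The highest were Psmb (0.72), Ndufa (0.65) and S (0.63), the symbols with a digit right after S, such as the S100 genes. The ubiquinone synthesis genes Coq followed (0.57 over 11 genes, 0 higher and 0 lower). The S family was split, with 2 higher and 2 lower of 10 and 6 of the 10 above the all-gene median. Its median was 0.28 in the shCerS4 pair. It reached from S100b at 15.5 CPM in IgG and 0.925 CPM in Caprin-1, one of the genes found mainly in the shSCR IgG library, to S100a11.

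The base composition before the gene start was set against the ratio for 6567 genes with a single RefSeq promoter entry. Sequences of 100 bases upstream of the start are shown for 3 genes of the highest group and 3 of the lowest, on the gene's strand and 5′ to 3′, from RefSeq GRCm38.p6, with each CG dinucleotide in capitals, to let the ends of the range be compared. They lie at chr13:54590131-54590230, chr14:21848911-21849010 and chr3:93520396-93520495 for Higd2a, Comtd1 and S100a11, and at chr19:5802673-5802772, chr15:90224211-90224310 and chr3:51560824-51560923 for Malat1, Alg10b and Setd7. Comtd1, Malat1 and Setd7 are on the minus strand.
Higd2a: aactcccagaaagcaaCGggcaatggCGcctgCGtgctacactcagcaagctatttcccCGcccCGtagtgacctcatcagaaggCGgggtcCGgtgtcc
Comtd1: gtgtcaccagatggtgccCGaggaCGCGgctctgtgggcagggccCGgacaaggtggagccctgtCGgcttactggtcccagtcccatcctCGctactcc
S100a11: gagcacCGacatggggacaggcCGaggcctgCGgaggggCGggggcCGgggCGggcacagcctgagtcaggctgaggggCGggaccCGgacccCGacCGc
Malat1: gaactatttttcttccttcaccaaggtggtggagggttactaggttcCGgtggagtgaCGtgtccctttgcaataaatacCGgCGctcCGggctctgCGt
Alg10b: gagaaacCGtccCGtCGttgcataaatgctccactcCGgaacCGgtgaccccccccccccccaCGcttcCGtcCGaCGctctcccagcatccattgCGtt
Setd7: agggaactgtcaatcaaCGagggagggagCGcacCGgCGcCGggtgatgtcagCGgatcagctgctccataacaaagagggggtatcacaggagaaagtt

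The printed promoters did not separate by CG count, which was 7, 6 and 10 in the higher genes and 6, 10 and 6 in the lower ones. At least 1 CG, a motif that reads the same on both strands, was present in 98.4% of all such 100-base windows, with a median of 9. Over the 6567 genes, the GC content of the 250 bases upstream had a median of 60.8% and a Spearman's rho with the ratio of −0.22, across genes that share the libraries and are not independent. Genes with promoters of at least 70% GC had a median ratio of −0.49, with 23.5% lower and 0.448% higher past 2-fold, against 0.02 where GC was under 50%. GC content was itself weakly related to span (rho 0.17), and within the 6 span classes rho with the ratio was between −0.22 and −0.12. Among genes over 100 kb, the median was −0.60 for GC under 55% and −1.01 for at least 70%.

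The file lists several transcripts for many genes, and these were compared within a gene where both averaged at least 5 CPM. In 1114 of 2826 such genes (39.4%), a pair of transcripts differed at least 2-fold in ratio with intervals that did not overlap. In the shCerS4 pair, 588 of them (52.8%) had the difference in the same direction and 241 (21.6%) by at least 2-fold, and the median difference was 1.57 in the control pair, which chose them, and 0.07 in the other. At a minimum of 20 CPM, 186 of 1029 genes (18.1%) differed, 111 (59.7%) in the same direction in shCerS4 cells. The file gives no transcript identifiers, and the values depend on how reads were divided between transcripts before deposit. Most of the differences between transcripts seen in the control pair thus had no counterpart of their size in the second pair.

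A few genes named after their values were seen had the same difference in both pairs. Eif4e2, which encodes a cap-binding protein related to eIF4E, had one transcript at 72.8 CPM in IgG and 29.2 CPM in Caprin-1 and another at 14.4 and 39.4 CPM. The ratios of these transcripts differed by 2.76 in the control pair and 2.39 in the shCerS4 pair. Luc7l, a splicing factor gene, had one at 81.6 and 39.6 CPM and another at 23.8 and 50.1 CPM. Xiap, an inhibitor of apoptosis, showed the opposite case, with one transcript at 106 and 11.6 CPM and another at 34.9 and 32.5 CPM, a difference of 3.09 in the control pair. In the shCerS4 pair the ratios of its transcripts were −1.31 and −1.32.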

How the data were processed

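RNA from Caprin-1 and IgG precipitates of 4T1 cells was sequenced in 4 libraries, 1 per group. Per the labels' protocols, RNA was taken up in Qiazol and libraries were made from 500 ng of total RNA with the SMARTER mRNA-Seq kit; STAR, Partek and mm10 are named in the submitters' processing notes, without versions. The deposited table holds CPM per transcript with 0.0001 added to every cell, as read from its values; the rule for dividing reads between transcripts is not given in the sources used here.

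From it, 0.0001 was subtracted, the 24393 transcripts were summed by gene symbol, and genes of at least 5 CPM on average over the 4 libraries were kept. Depth was estimated from the spacing of low values of genes with 1 transcript; 77.0% and 74.4% of values under 100 reads in shSCR IgG and shSCR Caprin-1 came out whole within 0.05 reads, so no count test was run and reads are estimates. Ratios, intervals and calls were computed in Python 3.11.15 with numpy 2.4.6, pandas 2.3.3 and scipy 1.17.1 and tested on simulated data; figures were drawn with matplotlib 3.10.9. Of the tested symbols, 10277 were matched to the RefSeq gene table of GRCm38.p6.

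The genes and the 47 lists were chosen with earlier results of these data known. Named genes were the 25 highest and 25 lowest ratios of at least 20 CPM without predicted genes, the 15 most abundant, from each list the most abundant member and the 3 highest and 3 lowest of at least 5 CPM, the extremes of described families, the 10 most different transcript pairs, and Cd274, Caprin1, G3bp1 and G3bp2; 1 gene that the rule names and 1 list are not reported here. Other scalings, filters, added reads, fold limits, the most abundant transcript alone and equal depth were tried, and 1 alternative (leaving out the genes found mainly in shSCR IgG) and 2 marker lists were added after seeing the data. A comparison by protein length was planned and not run.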

Additional observations from a re-analysis of the deposited data

Results flagged for a closer look

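For 8 genes named from the lists, the Caprin-1 over IgG ratio had opposite signs in the 2 cell lines, each with an interval excluding 0; the difference between the lines was not tested, as each ratio rests on 1 library a side. The largest gap was that of Ndufb4, an accessory subunit gene of complex I, at −0.85 in shSCR cells and 0.48 in shCerS4 cells. Exosc2, an exosome subunit gene, was at 0.69 and −0.23, and the cold-shock protein gene Ybx1 at 0.38 and −0.09. The proteasome genes Psmd1 (−0.09 and 0.28) and Psmd2 (−0.21 and 0.19) and the complex II gene Sdha (−0.09 and 0.24) were below 0 in shSCR cells and above it in shCerS4 cells. Myc was at 0.14 and −0.08 and the chaperone gene Hsp90ab1 at 0.09 and −0.10. The other scalings move every shSCR ratio up by 0.16 to 0.18, which takes the shSCR values of Psmd1 and Sdha above 0. The same scalings apply to the shCerS4 ratios, including the small negative values of Ybx1, Myc and Hsp90ab1, and their shift there is not given here. Opposite signs were counted with CPM scaling alone. Over all tested genes, 298 (2.90%) had such opposite signs.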

How the results depend on the processing

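No paired analysis was possible because each group was 1 library and no replicate numbers are given. Scaling by the trimmed mean of M-values, the median of ratios or the upper quartile gave 426, 448 and 461 genes higher past 2-fold, 941, 918 and 910 lower, and an all-gene median of 0.03, 0.04 and 0.05. With the first of these scalings, 137 higher and 459 lower genes were shared between the cell lines. Higher genes numbered 262 with a minimum of 1 CPM, 113 with 20 CPM, 418 with no filter, and 265 with the most abundant transcript alone, and lower genes 2050 with no filter. At 1.5-fold the counts were 1169 higher and 2829 lower, and at 3-fold 8 and 288. Genes with transcripts that differed numbered 186 at 20 CPM. Under the other scalings Fosl2 (−0.94 to −0.93) and Srrm2 (−0.95 to −0.94) no longer passed 2-fold. Nor did Atp5g3 (0.99), Ndufb11 (0.95) and Rpl35a (just under, 1.00 when rounded) with the most abundant transcript alone, or Rab20 (0.99) with 5 reads added. No called value among the named genes changed sign under the alternatives run. The scalings and CPM filters could not have changed one, as the scalings shift ratios by less than 2-fold and the filters leave ratios unchanged. Protein length was not run. Depth limits mainly the 7 tested genes with under 10 estimated reads, whereas the lack of replicates limits all.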
